A study of Rattus rattus with 8 samples.

Results

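Class II presentation genes were measured in colonic epithelium of the inbred Wistar-Kyoto rat (WKY) and the spontaneously hypertensive rat (SHR). The genes were taken by symbol: RT1-Ba, RT1-Bb, RT1-Da, RT1-Db1, RT1-DMa, RT1-DMb and Cd74. These 7 symbols take up 8 of the 11762 rows of the deposited gene table, because RT1-DMb is listed under 2 Ensembl identifiers. SHR becomes hypertensive with age, and WKY serves as its control with normal pressure. The labels give 4 libraries per strain, numbered 1 to 4, and state no treatment, age or sex for either strain. They do not say whether each library came from its own animal, and the p-values therefore cover the spread among these libraries, which may be technical. The epithelium of the proximal colon was detached with EDTA and shaking, and the labels name no sort, so other cells can be present.

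Class II molecules are pairs of an α and a β chain that carry peptides from endosomes to the cell surface and show them to CD4+ T cells. The rat has RT1-B, the counterpart of human HLA-DQ, and RT1-D, the counterpart of HLA-DR. Cd74, the invariant chain, guards the empty groove on the way to the endosome, and the DM pair, RT1-DMa with RT1-DMb, then exchanges the remnant of Cd74 for antigen peptides. B cells, dendritic cells and macrophages express these genes constitutively, and intestinal epithelium can express them after exposure to interferon gamma through the coactivator CIITA.

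The values were taken as FPKM, a level scaled to gene length and library size that was inferred from the numbers themselves, and how many reads lie behind a value is unknown. FPKM summed to between 882295 and 1066833 per library, and 10708 to 11124 genes reached 1 FPKM. Epithelial markers, led by Car1 and Krt8 (means of 19971 and 4918 FPKM in WKY, against 20471 and 4385 FPKM in SHR), were abundant in all libraries, with rows for 15 of 17 markers and summed levels of 32417 to 42706 FPKM in WKY, against 37635 to 40176 FPKM in SHR. The summed level of the 8 class II rows was far lower, at 108.7 to 188.3 FPKM in WKY, against 41.2 to 84.2 FPKM in SHR.

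Class II transcripts were lower in SHR for both antigen-binding pairs and for Cd74, while the 3 rows of the DM genes did not pass the test. Of these, RT1-DMb had negative log2 fold changes under both identifiers (-0.74 and -1.78) and RT1-DMa a positive value (0.31). Of the 8 rows, 5 fell, 0 rose and 3 did not pass (limma on log2(FPKM + 1), Benjamini-Hochberg adjusted p under 0.05 over 11069 tested genes), where 7.48% of all tested genes were called lower and 3.4% higher. All 4 SHR libraries lay below all 4 WKY libraries in 6 of the 8 rows, against 10.8% of the tested genes, and above them in 0 rows, against 5.28%. The median log2 fold change of the 8 rows was -1.22, beside -0.07 over all tested genes. The genes were chosen with these results known, so the counts are descriptions. In epithelium taken in bulk, fewer cells of a type and less RNA per cell cannot be told apart. RT1 genes resemble each other in sequence, and how reads shared between such copies were counted is not given, which leaves their levels uncertain. The genome build is not given either, and whether RT1 reads of both strains aligned to it equally well was not tested.

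The number of rows called was 2 without WKY replicate 4, SHR replicate 1, SHR replicate 3 or SHR replicate 4, and RT1-Ba and RT1-Bb were called in all 8 fits that left out a library. It was 7 of 8 by the q-values of the authors' deposited table, where 9.59% of genes were lower and 5.74% higher at the same threshold. Of the 11069 genes, 376 were called higher and 828 lower, a split that became 642 and 644 after quantile normalization and 541 and 714 after median centring. Without WKY replicates 1, 2 and 4 or SHR replicate 3 the lower count was 522, 521, 440 and 497. Without WKY replicates 1 and 4 or SHR replicates 2 and 3 the higher count was 237, 209, 205 and 191.

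**Figure D1:**
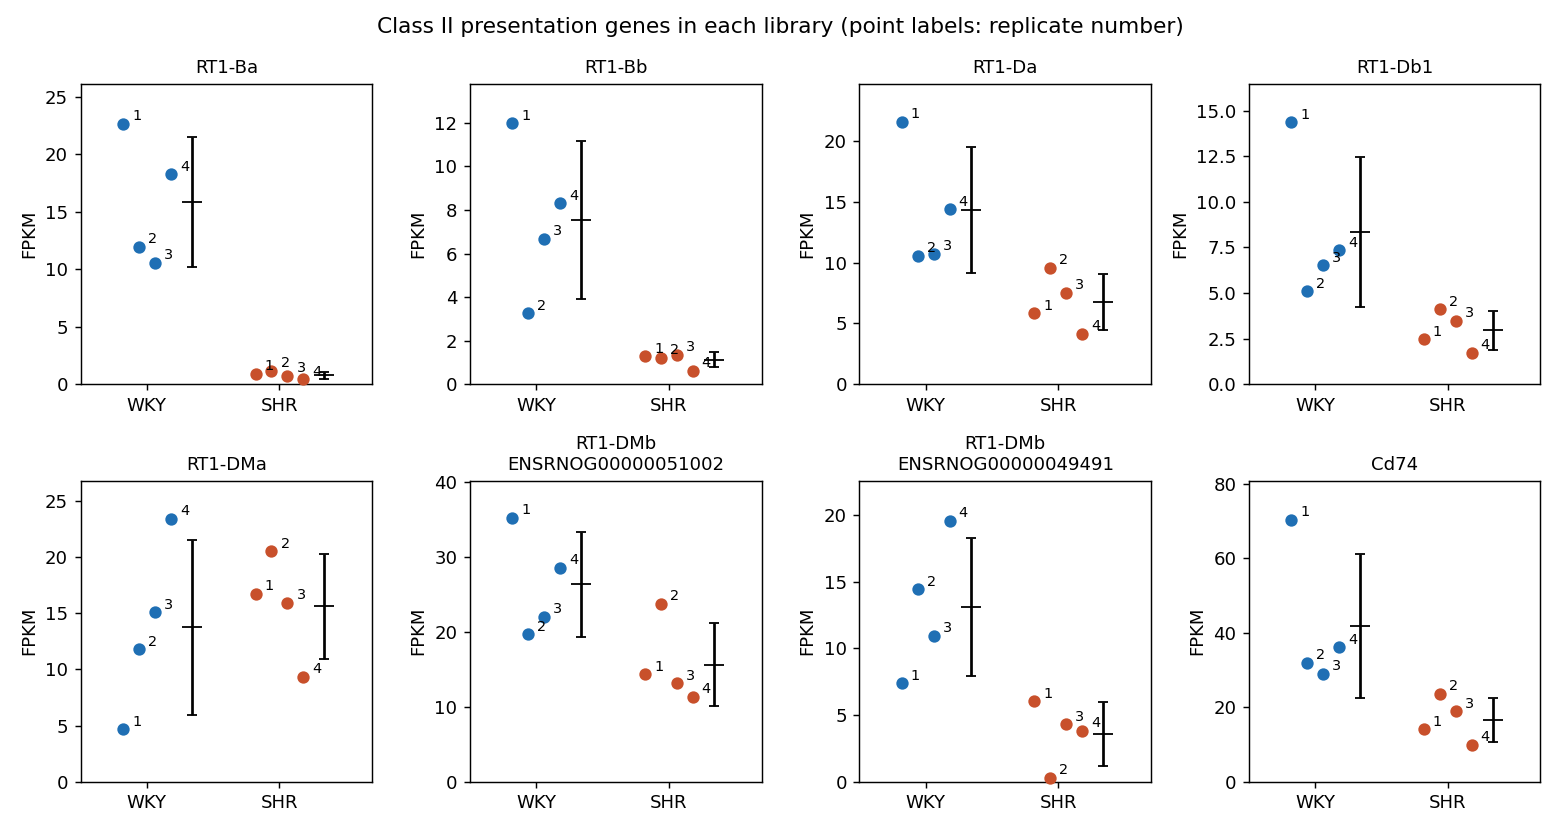
FPKM of the 8 class II rows in each library, on linear axes that start at 0. Points are libraries labelled with their replicate number (blue WKY, orange SHR), and the black mark and bar give the mean and SD of 4 libraries. The RT1-Ba values reach 1.17 FPKM at most in SHR and are at least 10.55 FPKM in WKY, while the RT1-DMa values of the strains overlap.

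By log2 fold change, the RT1-B pair held the largest differences of the 8 rows. RT1-Ba (ENSRNOG00000000451), the α chain, was at 22.65, 11.96, 10.55 and 18.24 FPKM in WKY replicates 1 to 4, against 0.90, 1.17, 0.73 and 0.45 FPKM in SHR replicates 1 to 4. The lowest WKY library was well above the highest SHR library. The highest SHR value was 1.17 FPKM and the others were under 1 FPKM, the level of the filter on low values. RT1-Ba thus met the filter through WKY, where it was high, and its fold difference rests on low SHR values. Its mean went from 15.9 ± 5.63 to 0.813 ± 0.302 FPKM (SD, n = 4 each), a 19.5-fold difference of the means and a log2 fold change of -3.17 ± 0.22 (SE, adjusted p = 1.65e-06). On the log2(FPKM + 1) scale, which understates changes at low levels, this was rank 10 among the 11069 tested genes counted from the most negative.

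RT1-Bb (ENSRNOG00000032708), the β chain of the same molecule, was at 11.97, 3.26, 6.67 and 8.31 FPKM in WKY, against 1.29, 1.21, 1.37 and 0.62 FPKM in SHR. The strains did not overlap, although WKY replicate 2 came closer to SHR than the other WKY libraries. The mean fell from 7.55 ± 3.62 to 1.12 ± 0.341 FPKM, with the log2 fold change at -1.92 ± 0.29 (adjusted p = 0.00307). RT1-Ba and RT1-Bb stayed past the threshold in all 16 alternative settings, with adjusted p of at most 5.42e-05 and 0.0145.

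The RT1-D pair was lower in SHR by a smaller factor. RT1-Da (ENSRNOG00000032844), the α chain, was at 21.58, 10.54, 10.71 and 14.38 FPKM in WKY, against 5.85, 9.55, 7.52 and 4.15 FPKM in SHR. The gap between the strains was narrow, since SHR replicate 2 came within about 1 FPKM of WKY replicates 2 and 3. The mean fell from 14.3 ± 5.17 to 6.77 ± 2.31 FPKM (log2 fold change -0.97 ± 0.26, adjusted p = 0.0358). The call ended without WKY replicate 1 (adjusted p = 0.0598), WKY replicate 4 (0.1001), SHR replicate 1 (0.0869), SHR replicate 3 (0.0720) or SHR replicate 4 (0.0689), and with median centring (0.0531).

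RT1-Db1 (ENSRNOG00000033215), a β chain of RT1-D, was at 14.35, 5.11, 6.53 and 7.34 FPKM in WKY, against 2.47, 4.12, 3.48 and 1.74 FPKM in SHR. WKY replicate 1 stood well above the other WKY libraries, and the strains did not overlap. The mean fell from 8.33 ± 4.12 to 2.95 ± 1.06 FPKM (log2 fold change -1.19 ± 0.28, adjusted p = 0.0258). The call ended without WKY replicate 4 (0.0657), SHR replicate 1 (0.0662), SHR replicate 3 (0.0533) or SHR replicate 4 (0.0627).

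The DM genes, which encode the peptide exchange factor, did not pass. RT1-DMa (ENSRNOG00000047864) was at 4.66, 11.80, 15.08 and 23.43 FPKM in WKY, against 16.74, 20.53, 15.96 and 9.32 FPKM in SHR. The strains overlapped fully, and the lowest and the highest of the 8 values were both WKY libraries. The log2 fold change was 0.31 with a 95% confidence interval of -0.74 to 1.36 (adjusted p = 0.704), and -0.09 without WKY replicate 1. The interval holds both a fall and a more than 2-fold rise, so the direction of a change of RT1-DMa was not settled here. Its lower end of -0.74 lies above the log2 fold changes of the 5 called rows, of which that of RT1-Da, -0.97, was the nearest. The 95% confidence intervals of RT1-Da, RT1-Db1 and Cd74 end at -0.404, -0.554 and -0.519 and thus overlap that of RT1-DMa. Those of RT1-Ba and RT1-Bb end below it, at -2.699 and -1.258. Comparing intervals is not a test of a difference between genes.

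RT1-DMb is listed as ENSRNOG00000051002 and ENSRNOG00000049491. The first was at 35.29, 19.69, 22.00 and 28.55 FPKM in WKY, against 14.36, 23.76, 13.13 and 11.33 FPKM in SHR, where only SHR replicate 2 overlapped WKY. The second was at 7.38, 14.42, 10.94 and 19.54 FPKM in WKY, against 6.03, 0.28, 4.29 and 3.80 FPKM in SHR. SHR replicate 2 was the highest SHR library for the first identifier and the lowest for the second, and WKY replicate 1 was likewise highest for the first and lowest for the second.

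The log2 fold changes of these RT1-DMb identifiers were -0.74 ± 0.23 (adjusted p = 0.0625) and -1.78 ± 0.57 (adjusted p = 0.0955). Without SHR replicate 2 both passed (adjusted p = 0.0114 and 0.0224, with log2 fold changes of -0.95 and -1.24), and the first also passed without WKY replicate 2 (0.0492). The second also passed at a pseudocount of 5 (0.0455) and with no trend or robust settings (0.0317), which made 6 class II rows called lower in each. The values of the identifiers summed to 42.67, 34.11, 32.94 and 48.09 FPKM in WKY, against 20.39, 24.04, 17.42 and 15.13 FPKM in SHR, with no overlap. Summed into 1 row before the fit, an alternative chosen after seeing the data, RT1-DMb was lower in SHR, with means of 39.5 ± 7.21 and 19.2 ± 3.85 FPKM (adjusted p = 0.00196). In the authors' deposited table the q-values of the identifiers were 0.0183 and 0.0307.

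Cd74 (ENSRNOG00000018735), the invariant chain, was at 70.41, 31.96, 28.91 and 36.08 FPKM in WKY, against 14.09, 23.57, 18.86 and 9.82 FPKM in SHR. WKY replicate 1 stood far above the other WKY libraries, and the strains did not overlap. The mean fell from 41.8 ± 19.3 to 16.6 ± 5.94 FPKM (log2 fold change -1.26 ± 0.33, adjusted p = 0.0409). The call ended without WKY replicate 2 (0.0680), WKY replicate 4 (0.0928), SHR replicate 1 (0.0902), SHR replicate 3 (0.0901) or SHR replicate 4 (0.0801).

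**Figure D2:**
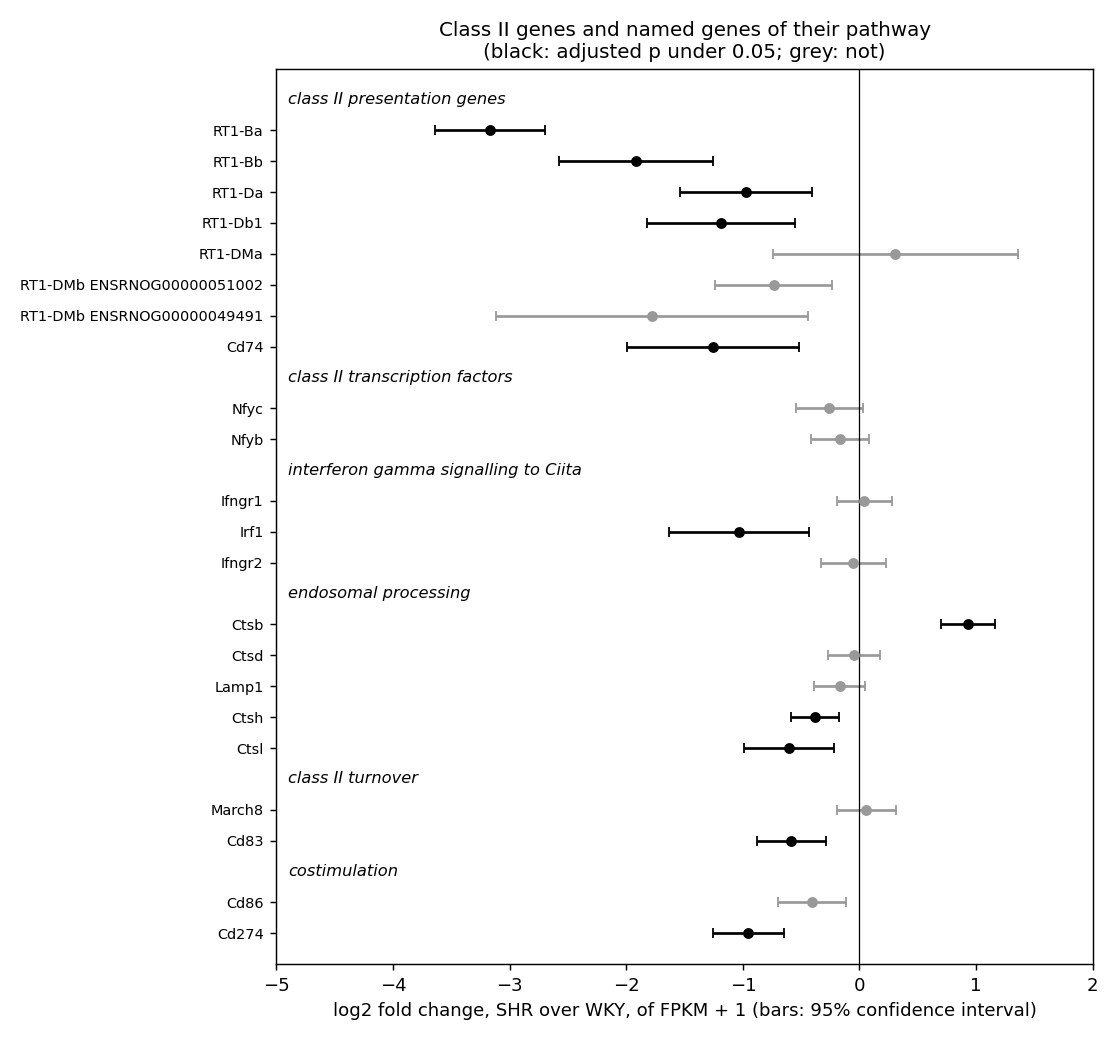
Log2 fold change of SHR over WKY on the log2(FPKM + 1) scale for the 8 class II rows and the named genes of the class II pathway, with 95% confidence intervals from limma. Black points passed an adjusted p under 0.05 and grey points did not, with RT1-Ba at -3.17 the lowest and the cathepsin gene Ctsb at 0.93 the highest.

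The order of the levels, compared per length in FPKM, was not the same in the strains. Cd74 had the highest mean of the 8 rows in both, at 41.8 FPKM in WKY, against 16.6 FPKM in SHR. In SHR it was hardly above the next row, RT1-DMb ENSRNOG00000051002 at 15.6 FPKM, which it exceeded in 1 of 4 libraries, and it was below the sum of both RT1-DMb identifiers, 19.2 FPKM. RT1-Ba was at rank 3 of the 8 rows in WKY and at rank 8 in SHR, where it was below RT1-Bb in all 4 libraries. RT1-DMa was at rank 5 in WKY and rank 3 in SHR. In WKY the ranges of all neighbours in the order overlapped, although Cd74 exceeded the next row, RT1-DMb ENSRNOG00000051002, in 4 of 4 libraries. In SHR 1 pair of neighbours was separated by its ranges, RT1-Db1 (1.74 to 4.12 FPKM) above RT1-Bb (0.62 to 1.37 FPKM).

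Taken as a share of the summed FPKM of the 8 rows, RT1-Ba made up 11.1% ± 1.14 in WKY and 1.26% ± 0.187 in SHR (SD, n = 4 each). The share of RT1-Da was 10.0% ± 0.996 and 10.6% ± 0.988. RT1-Bb had 5.17% ± 1.51 and 1.78% ± 0.361, and RT1-DMa had 10.5% ± 5.61 and 24.6% ± 1.86. The mean shares of both RT1-B chains were thus lower in SHR, while those of RT1-Da differed by less than 1 SD. Shares of 1 sum depend on each other and were not tested.

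Whether the genes changed by unequal factors was examined as log2 ratios of FPKM + 1 within each library, with a two-sided exact permutation test over the 8 libraries for 9 ratios. With 4 against 4 libraries the smallest possible p is 0.0286, and 5 ratios reached it, which became 0.0514 after Benjamini-Hochberg adjustment over the 9, so 0 passed. RT1-Ba over Cd74 was at -1.59, -1.35, -1.37 and -0.95 in WKY and at -2.99, -3.50, -3.52 and -2.90 in SHR, a difference of -1.91. RT1-Ba over its partner RT1-Bb was at 0.87, 1.61, 0.59 and 1.05 in WKY and at -0.27, -0.03, -0.45 and -0.16 in SHR, a difference of -1.25. In both ratios every SHR library was below every WKY library.

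RT1-DMa over Cd74 was higher in every SHR library than in every WKY library, with a difference of 1.57, or 0.89 without WKY replicate 1, the library of lowest RT1-DMa. RT1-DMa over RT1-DMb (the identifier of higher mean) differed by 1.04, or 0.50 without that library and 2.09 with the other RT1-DMb identifier. RT1-Da over Cd74 differed by 0.29, also without overlap. RT1-Db1 over Cd74 differed by 0.07 at this pseudocount, and by 0.37 at a pseudocount of 5 (p = 0.543 by the exact test at a pseudocount of 1), at -2.20 ± 0.18 in WKY and -2.13 ± 0.12 in SHR.

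**Figure D3:**
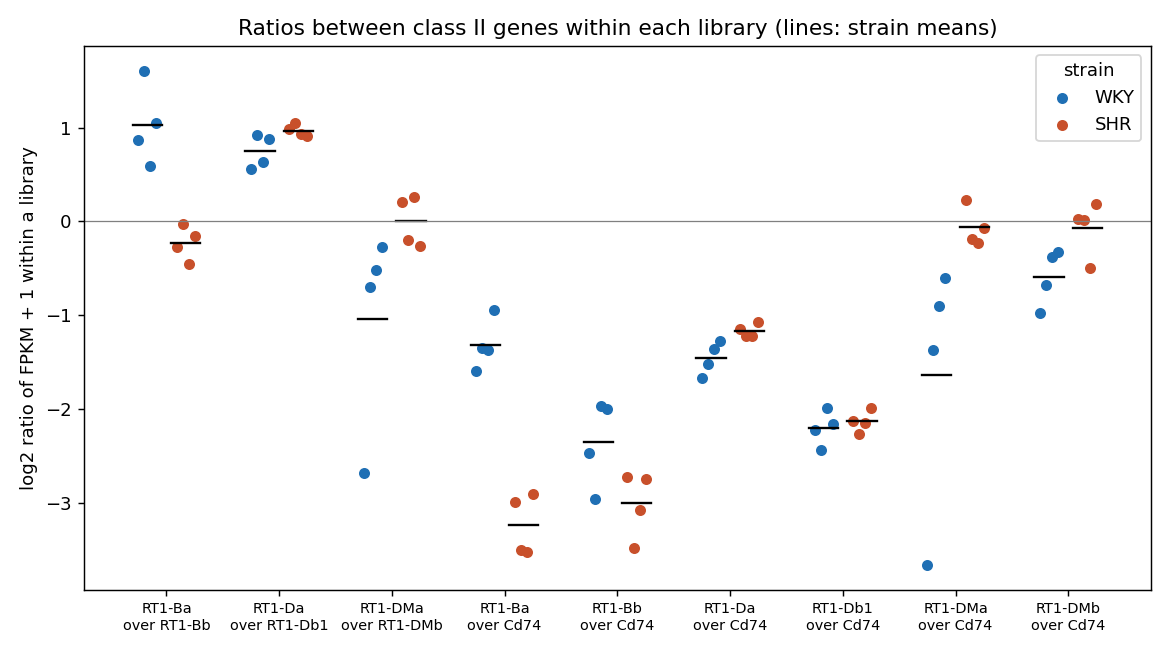
Log2 ratio of FPKM + 1 between pairs of class II genes within each library (blue WKY, orange SHR), with RT1-DMb as its identifier of higher mean. Each point is a library and each line the mean of a strain. RT1-Ba over Cd74 lies between -1.59 and -0.95 in WKY and between -3.52 and -2.90 in SHR.

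The libraries of a strain spread widely for these genes. The SD was 26.6% to 56.7% of the mean over the 8 rows in WKY and 29.8% to 67.0% in SHR, where the median tested gene had 12.8% and 15.0%. WKY replicate 1 was the highest WKY library for 6 of the 8 rows and the lowest for the other 2, RT1-DMa and RT1-DMb ENSRNOG00000049491. SHR replicate 4 was the lowest SHR library for 7 rows, and SHR replicate 2 the highest for 6. After the strain means were subtracted, each row was compared with the mean of the other 7 over the 8 libraries. Pearson's r was 0.66 to 0.83 for 6 rows, -0.15 for RT1-DMa and -0.51 for RT1-DMb ENSRNOG00000049491.

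The genes most like the mean of the 8 rows were sought in the same way among tested genes with a mean of at least 1 FPKM and a gene symbol. They were Mtch1 (r = 0.98, Spearman's rho 0.93), Acta1 (0.96, 0.90), Arpc1a (0.95, 0.90), Timm17b (0.94, 0.93), Borcs5 (0.94, 0.88) and Tbcc (0.93, 0.90), over 8 libraries with strain means removed. These are the top 6 of all such genes over few libraries, and values of 1 library share its depth and RNA, so no p-value is given. Of the 6, Acta1 was also called lower in SHR (5.50 ± 1.90 FPKM in WKY, against 1.44 ± 0.709 FPKM in SHR, adjusted p = 0.00604), as were 7.48% of all tested genes. Timm17b and Tbcc, like Acta1, had every SHR library below every WKY library but did not pass (limma adjusted p = 0.0559 and 0.0641).

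Most other genes of the class II pathway did not pass the test. Of 47 listed symbols, older and newer names included, 33 had a row, and all 33 were tested, with 1 higher, 5 lower and 27 not called, beside 3.4% higher and 7.48% lower over all tested genes. Their median log2 fold change was -0.08. Of the 5 lower, Cd274 reached 1 FPKM in WKY libraries only and entered the test through them. The count of 5 lower was 2, 3, 3 and 1 without WKY replicates 1 to 4 and 2 without SHR replicate 2 or SHR replicate 3, and 3 with median centring.

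Of the factors that bind class II promoters, 0 of 7 passed, beside 10.9% of all tested genes in either direction. Nfyc and Nfyb, subunits of the CCAAT-binding factor NF-Y, were at 35.0 ± 2.44 and 14.9 ± 1.71 FPKM in WKY, against 29.4 ± 5.37 and 13.2 ± 1.05 FPKM in SHR. Ciita had no row under that name and is not analysed here.

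In the interferon gamma group 1 of 10 fell, a share near the 7.48% lower over all tested genes. Irf1, a transcription factor induced by interferon gamma and an activator of Ciita, was at 97.37, 197.88, 86.80 and 75.84 FPKM in WKY, against 63.55, 52.95, 47.45 and 43.37 FPKM in SHR. The strains did not overlap, and WKY replicate 2, the lowest WKY library for 4 of the 8 class II rows, was the highest for Irf1. Irf1 had a log2 fold change of -1.03 ± 0.27 (adjusted p = 0.0370), a call that ended without WKY replicate 1 (0.0798), SHR replicate 2 (0.0730), SHR replicate 3 (0.117) or SHR replicate 4 (0.101). The receptor genes Ifngr1 and Ifngr2 were at 164.7 ± 13.9 and 63.3 ± 7.89 FPKM in WKY, against 169.4 ± 13.4 and 61.1 ± 8.07 FPKM in SHR.

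Among 12 genes of endosomal processing, 1 rose and 2 fell, beside 3.4% higher and 7.48% lower over all tested genes. Ctsb, the cysteine protease cathepsin B, was at 395.89, 344.75, 394.65 and 383.83 FPKM in WKY, against 711.80, 707.85, 810.13 and 669.60 FPKM in SHR. It rose with a log2 fold change of 0.93 ± 0.11 (adjusted p = 0.000158), and it was called under all 16 alternative settings. Ctss, cathepsin S, named after its values were seen, was also higher in every SHR library (127.2 to 148.7 FPKM) than in every WKY library (99.9 to 124.2 FPKM) but did not pass (adjusted p = 0.110). Sppl2a of the same list, also named after its values were seen, was lower in every SHR library than in every WKY library. It was at 88.56 to 127.85 FPKM in WKY, against 60.39 to 88.11 FPKM in SHR. Sppl2a did not pass (limma adjusted p = 0.0531), while its q-value in the authors' deposited table was 0.001045. Ctsh, an aminopeptidase, fell from 70.1 ± 2.17 to 53.6 ± 2.70 FPKM (adjusted p = 0.0232), and the call ended with median centring (0.0614) and without WKY replicate 1 (0.0779), WKY replicate 4 (0.0739) or SHR replicate 2 (0.0686).

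Ctsl, cathepsin L, which trims Cd74 in thymic epithelium of the mouse, fell from 28.5 ± 8.20 to 18.0 ± 2.42 FPKM (adjusted p = 0.0489). Its call was lost in all fits without a library other than that without WKY replicate 1, with adjusted p of 0.0591 to 0.122, and also with quantile normalization (0.0855), median centring (0.0774), a pseudocount of 5 (0.0514) and no trend or robust settings (0.0593). Ctsd and Lamp1, a lysosomal protease and a lysosomal membrane protein, were at 208.4 ± 8.85 and 139.6 ± 3.14 FPKM in WKY, against 202.5 ± 16.8 and 124.4 ± 10.7 FPKM in SHR and did not pass.

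Of 2 measured genes of class II turnover, Cd83, which stabilizes class II molecules at the surface, was at 4.96, 4.79, 4.50 and 4.83 FPKM in WKY, against 3.06, 3.80, 2.23 and 2.47 FPKM in SHR. Its WKY libraries were close together and all above SHR, with a log2 fold change of -0.59 ± 0.14 (adjusted p = 0.0169), and its call ended without WKY replicate 1 (0.0517), WKY replicate 4 (0.0540) or SHR replicate 3 (0.0609). March8, a ubiquitin ligase of membrane proteins, did not pass, at 44.7 ± 5.58 FPKM in WKY, against 46.5 ± 3.97 FPKM in SHR.

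Of 2 measured costimulation genes, Cd274, which encodes the inhibitory ligand PD-L1, was at 2.52, 2.34, 1.60 and 1.41 FPKM in WKY, against 0.42, 0.60, 0.44 and 0.60 FPKM in SHR. It fell without overlap of the strains (log2 fold change -0.95 ± 0.14, adjusted p = 0.00111), and it dropped under the filter on low values in each of the 4 fits without a WKY library. All its SHR values were under 1 FPKM, so Cd274 entered the test only through the strain where it was high, and its call is a description. Cd86, a ligand of CD28, was at 13.3 ± 2.44 and 9.67 ± 0.941 FPKM, with no overlap but an adjusted p of 0.0723.

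Some markers of leukocytes also fell in SHR, and their part in the class II result was not tested. The list for T and natural killer cells held 18 markers, of which 11 had a row, 10 were tested, 5 fell (Gzma, Gzmb, Nkg7, Cd3g and Il2rb) and 0 rose, beside 7.48% lower over all tested genes, while Cd4, Cd3d and Trac had no row. Of the 5, Nkg7 reached 1 FPKM in WKY libraries only (1.60 to 4.70 FPKM, against 0.35 to 0.99 FPKM in SHR). It entered the test through the strain where it was high, so its call is a description. The count of 5 was 2 without WKY replicate 1 or WKY replicate 4, 9 without WKY replicate 2 and 3 without SHR replicate 1, 2 or 4. Their summed level was 53.84 to 228.81 FPKM in WKY, against 21.22 to 45.24 FPKM in SHR. Gzma, a granzyme, and Cd7, a surface protein of T cells, had the highest means, at 46.1 ± 25.1 and 45.3 ± 29.0 FPKM in WKY, against 7.21 ± 2.65 and 13.4 ± 5.90 FPKM in SHR. Of 10 markers of all leukocytes 9 had a row and 8 were tested, and 4 fell (Ptprc, Cd53, Cd48 and Laptm5), with summed levels of 51.91 to 105.95 and 35.34 to 58.34 FPKM that overlapped. This count of 4 was 7 without WKY replicate 2 and only 2 when replicate 1 or 4 of either strain was left out. By the q-values of the authors' deposited table, 9.59% of all 11762 genes were lower. The same q-values put 10 rows of the T and natural killer list and 7 of the leukocyte list as lower. The most abundant of these, Rac2 and Coro1a, did not pass, at 32.0 ± 1.71 and 13.5 ± 7.11 FPKM in WKY, against 31.3 ± 5.48 and 3.62 ± 1.52 FPKM in SHR.

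Of the cells that express class II constitutively, 7 of 18 markers of dendritic cells and macrophages had a row. Of the 5 tested, 1 was called, Cd14, and it was higher in SHR (from 86.8 ± 2.46 to 130.9 ± 4.13 FPKM), beside 3.4% higher over all tested genes. The others did not pass, with log2 fold changes of -0.80 (Lyz2), -0.53 (C1qc), -0.35 (C1qb) and 0.04 (C1qa). Without Cd14, left out after seeing its level, the list summed to 10.04 to 27.07 FPKM in WKY, against 6.30 to 19.68 FPKM in SHR, which overlapped. The macrophage lysozyme Lyz2 made up most of this sum, at 11.7 ± 5.99 and 6.68 ± 4.65 FPKM. Of 12 B and plasma cell markers 0 had a row, so these cells were not analysed here. None of the markers with a row was listed at 0 in any library.

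The library with the highest class II sum was not the one with the highest T and natural killer sum in either strain. WKY replicate 1 had the highest class II sum of its strain, 188.3 FPKM, and WKY replicate 3 the highest sum of T and natural killer markers, 228.8 FPKM. WKY replicate 2 was lowest in WKY for both, at 108.7 and 53.84 FPKM. SHR replicate 2 had the highest class II sum and SHR replicate 3 the highest T and natural killer sum in SHR. SHR replicate 4 was lowest for both, at 41.2 and 21.22 FPKM. Of 12 markers of stroma and endothelium 3 had a row, with summed levels of 5.37 to 18.71 FPKM in WKY, against 4.03 to 10.31 FPKM in SHR. Of the 2 tested, the pericyte gene Pdgfrb was called higher in SHR (limma adjusted p = 0.00290), beside 3.4% higher over all tested genes. Its mean was 0.875 ± 0.192 FPKM in WKY, against 2.05 ± 0.240 FPKM in SHR. The WKY values of Pdgfrb were 0.66 to 1.11 FPKM. It met the filter on low values through SHR, where it was high, so its call is a description. Vim did not pass (10.9 ± 4.90 FPKM in WKY, against 4.08 ± 2.09 FPKM in SHR).

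**Figure D4:**
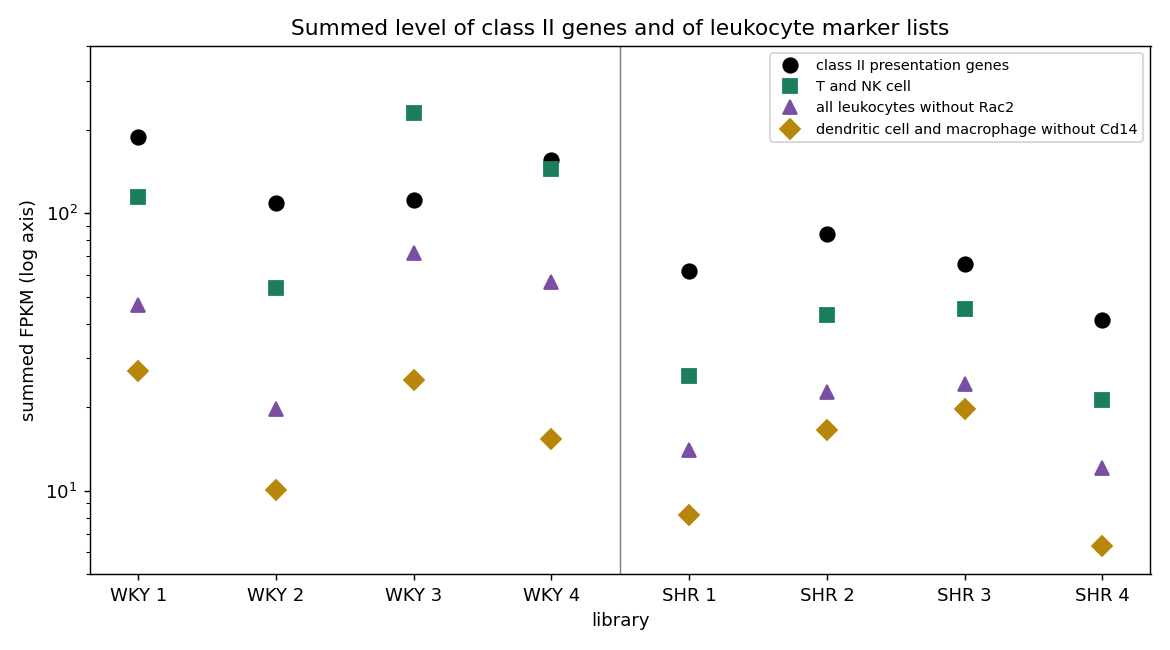
Summed FPKM, on a log axis, of the 8 class II rows and of 3 leukocyte marker lists in each library, with 1 abundant gene left out of each of 2 lists as named in the legend. The class II sums (black) are 108.7 to 188.3 FPKM in WKY, against 41.2 to 84.2 FPKM in SHR, and the highest T and natural killer sum is that of WKY replicate 3.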

How the data were processed

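Poly(A)-selected RNA was sequenced as directional paired-end libraries, per the labels' protocols. The submitters' processing notes name STAR, Trimmomatic and FastQC. No source used here gives the genome build, annotation, counting tool or strand use. The labels name the organism Rattus rattus, while gene identifiers have the Ensembl form for brown rat. The authors' values per library were taken as FPKM, a unit inferred from the values. The deposited table also gives mean CPM per strain, the authors' log2 fold change and their p-value with its q-value, per the file headers. No library pair held identical values, and reads per value are unknown.

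Genes reaching 1 FPKM in 4 or more libraries were tested (11069 of 11762, all 8 class II rows included) with limma 3.58.1 in R 4.3.3 on log2(FPKM + 1) (strain only, trended and robust empirical Bayes, two-sided, Benjamini-Hochberg over all tested genes, threshold 0.05). Ratios used exact permutation tests. Figures were drawn with matplotlib 3.10.9. Alternatives were quantile normalization, pseudocounts of 0.1 and 5, a block for the replicate number, median centring, no filter, no trend or robust settings, leaving out each library, and the authors' q-values.

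The members and lists were chosen with earlier results of these data known. Of 134 listed symbols other than the members, 56 had no row and are not analysed here. Named genes were all members, every called pathway gene, the 2 most abundant uncalled genes of each pathway list, the 2 most abundant genes of each marker list, and the 6 genes most like the members' mean.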

Additional observations from a re-analysis of the deposited data

Results flagged for a closer look

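Of 82 groups of 4 libraries examined for a library far from the others, 1 was marked, where chance marks about 1 in 20. Nfyb, a subunit of the CCAAT-binding factor NF-Y, was at 17.47 FPKM in WKY replicate 4, and the other WKY libraries lay between 13.74 and 14.29 FPKM.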

How the results depend on the processing

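RT1-Ba, RT1-Bb and Ctsb kept their direction and call in all 16 alternatives. Without 1 library the count of class II rows called lower ranged from 2 to 7, of pathway genes called lower from 1 to 4, of T and natural killer markers from 2 to 9, of leukocyte markers from 2 to 7, and of all genes from 191 to 550 higher and 440 to 1126 lower. The higher count over all genes was 642 with quantile normalization and 675 by the authors' q-values. Pathway genes called numbered 2 higher with quantile normalization and 3 lower with median centring.

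Whether libraries of the same replicate number were handled together cannot be told from their correlations. Same-numbered libraries had correlations of deviations from -0.29 to 0.46, and 2 of 8 libraries correlated best with their own number. With the replicate block 2 class II rows were called lower, RT1-Ba and RT1-Bb.

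At a pseudocount of 0.1, 7 ratios passed, with differences of -1.57 (RT1-Ba over RT1-Bb), 0.36 (RT1-Da over RT1-Db1), 1.12 (RT1-DMa over RT1-DMb), -2.82 (RT1-Ba over Cd74), -1.25 (RT1-Bb over Cd74), 0.24 (RT1-Da over Cd74) and 1.65 (RT1-DMa over Cd74). The adjusted p was 0.0367 for each of these. Each was at the smallest possible p, 0.0286, where the adjusted p depends only on how many of the 9 ratios reach it. Passing is thus not separate evidence for each ratio. Uncalled ratios to Cd74 changed sign for RT1-Db1 at a pseudocount of 0.1 (-0.12), for RT1-Bb at 5 (0.0927) and for RT1-DMb with its other identifier (-0.52), an alternative chosen after seeing the data. At a pseudocount of 5 differences were smaller for RT1-Ba over Cd74 (-0.72), RT1-Ba over RT1-Bb (-0.81) and RT1-Da over RT1-Db1 (0.01), and 0 ratios passed. Without 1 library the exact permutation test of a ratio cannot pass, since its smallest p is 0.0571. Uncalled log2 fold changes also changed sign. Without 1 library they ranged from -0.0915 to 0.61 for RT1-DMa, -0.0136 to 0.0759 for Ifngr1 and -0.13 to 0.0232 for Ifngr2, and Ctsd was at 0.0844 with quantile normalization and 0.0031 with median centring, and Ifngr2 at 0.0182 with quantile normalization. The causes were not tested.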

Other observations

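Other genes known to lie in the class II region of the major histocompatibility complex, chosen after their values were seen, did not move together. Psmb9, a subunit of the immunoproteasome, was at 159.99 ± 45.9 FPKM in WKY, against 70.6 ± 6.56 FPKM in SHR (limma adjusted p = 0.00246). Its partner Psmb8 was at 87.8 ± 13.3 and 81.4 ± 9.98 FPKM (adjusted p = 0.657). Tap1 and Tap2 encode the subunits of the peptide transporter for class I. Tap1 was at 26.3 ± 17.9 and 9.19 ± 1.18 FPKM, without overlap of the strains and with an adjusted p of 0.0560. Tap2 was at 30.3 ± 4.37 and 29.5 ± 2.88 FPKM (adjusted p = 0.898). Brd2, a bromodomain protein gene, was at 37.4 ± 2.20 and 35.2 ± 5.71 FPKM (adjusted p = 0.661).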
